A study of Mus musculus with 15 samples.

Results

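Chemokines and chemokine receptors were followed through the spleens of 12 leukemic mice. The members were all probes whose gene symbol in the deposited table began with Ccl, Cxcl, Ccr, Cxcr or Xcr and a digit, or was Xcl1, Cx3cl1 or Cx3cr1. This gave 67 of 25697 probes, which stood for 53 genes: 35 ligands on 44 probes and 18 receptors on 23 probes. No measured value entered the choice. Of the probes, 26 were detected on at least 3 labelled arrays and were kept, so 21 genes (11 ligands and 10 receptors) could be tested.

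RNA was measured on bead arrays from unsorted spleen cells of mice in a Cbx7-overexpression model, in which this chromobox protein of the polycomb repressive complex is overproduced. All 15 arrays came from that model, so no group without the overexpression was measured. Of the labelled mice, 7 (mice 2, 5, 4-1, 2-2, 5-1, 4-2 and 5-3) are labelled as T-cell leukemia, 4 (mice 2-3, 5-5, 2-3-2 and 2-3-3) as erythroid leukemia and mouse 4-3 alone as undifferentiated leukemia. Erythroid mice 2-3, 2-3-2 and 2-3-3 share the title stem 2-3, which the labels do not explain, so they may be related. The SDs and p-values below treat all mice as independent. No title of an erythroid mouse begins with 4. Mice 5-1 and 5-5 were each run on 2 arrays, and 1 further array carried no mouse or type. The strain, age, sex, vector and the host's remaining cells are not given in the labels.

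Chemokines are small secreted proteins that direct the movement of leukocytes by binding receptors that signal through inhibitory G proteins. Receptors such as Ccr7, Ccr4, Ccr8 and Ccr9 are carried by particular T-cell subsets and steer them to lymph node, skin, mucosa or thymus, while Cxcr4 holds blood-forming cells in the marrow through Cxcl12. In the spleen, stromal cells make Ccl19, Ccl21 and Cxcl13, which arrange T cells and B cells in the white pulp. Macrophages, granulocytes, cytotoxic cells and platelets bring the inflammatory ligands.

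The weakest libraries were both erythroid. Detected probes (detection p under 0.05 against the negative controls of the array) numbered 11278 to 12944 on the T-cell arrays, 7382 to 12605 on the erythroid arrays and 11699 on the undifferentiated array. The second array of mouse 5-5 and the array of mouse 2-3-2 had the 2 lowest numbers, 7382 and 7554. On those 2 arrays the lowest log2 level among detected probes was 6.15 and 6.09, against 4.82 to 5.06 on the other labelled arrays, so a low gene could be missed there. The type labels were checked with marker genes: of 13 T-cell markers, 12 were lower in the erythroid leukemias, and of 16 erythroid markers, 6 were higher and 10 did not pass the test. The Cbx7 probe was detected on 2 labelled arrays, with log2 levels of 4.58 to 5.08 in T-cell mice, 4.44 to 4.72 in erythroid mice and 4.78 in mouse 4-3. The probe's place relative to the overexpressed transcript was not given in the sources used here, so this does not check the overexpression.

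Few members were detected in every spleen. Of the 67 probes, 24 (35.8%, against 31.4% of all probes) were detected on none of the 14 labelled arrays, 17 on 1 or 2 arrays, 21 on 3 to 13 arrays and 5 (7.46%, against 18.3% of all probes) on all 14. By gene, 32 of 53 were detected somewhere and 21 nowhere, 14 of these ligands and 7 receptors. A threshold of 0.05 passes about 5% of probes without signal, so a detection on a single array is weak evidence of expression. The genes detected on all 14 arrays were the receptors Cxcr4 and Cxcr6 and the ligands Ccl11 and Ccl25. Among those detected nowhere were Ccl1, Ccl20, Ccl21c, Ccl2, Cxcl2, Ccr1, Ccr3, Cx3cr1, Xcl1 and Xcr1.

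**Figure D1:**
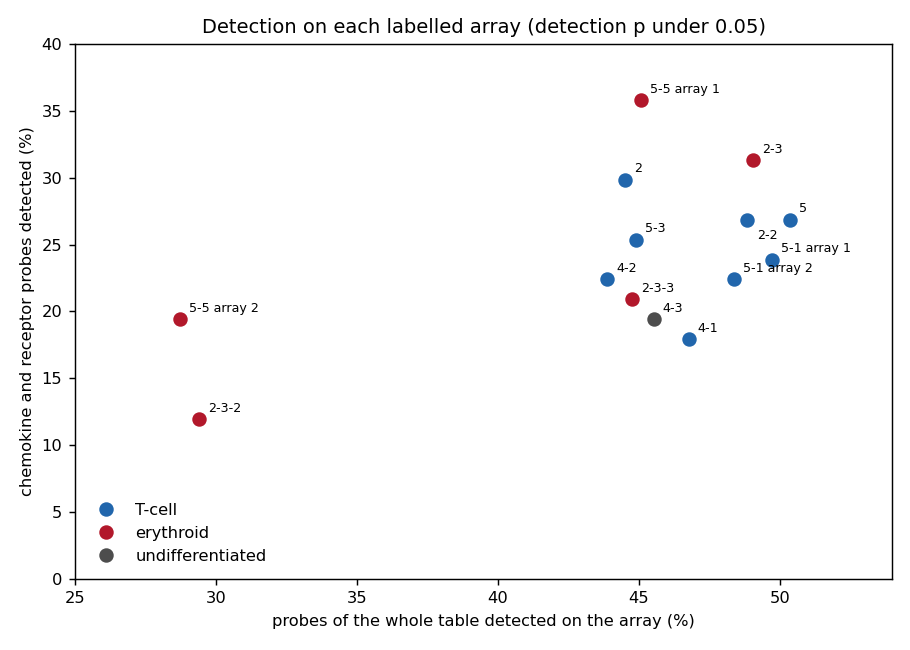
Percent of the 67 chemokine and receptor probes detected on each labelled array (vertical axis) against the percent of all 25697 probes detected (horizontal axis). Each point is 1 array, coloured by leukemia type. The members' share ran from 11.9% on the array of mouse 2-3-2 to 35.8% on the first array of mouse 5-5, and the 2 weak arrays lie apart at the left.

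Mice of the same type differed in how many ligands they showed. Mouse 5-5 (erythroid) had 17 ligand genes and 4 receptor genes detected on at least 1 of its 2 arrays, while mouse 2-3-2 (erythroid, 1 weak array) had 3 of each. The remaining erythroid mice, 2-3 and 2-3-3, had 8 ligand genes each, with 7 and 3 receptor genes. In the T-cell leukemias, ligand genes ran from 5 in mice 4-1 and 4-2 to 10 in mouse 2-2, and receptor genes from 5 in mice 4-1 and 2-2 to 8 in mice 5 and 4-2. Mouse 4-3 (undifferentiated) had 6 ligand genes and 4 receptor genes. The map of levels and detection shows these patterns gene by gene.

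**Figure D2:**
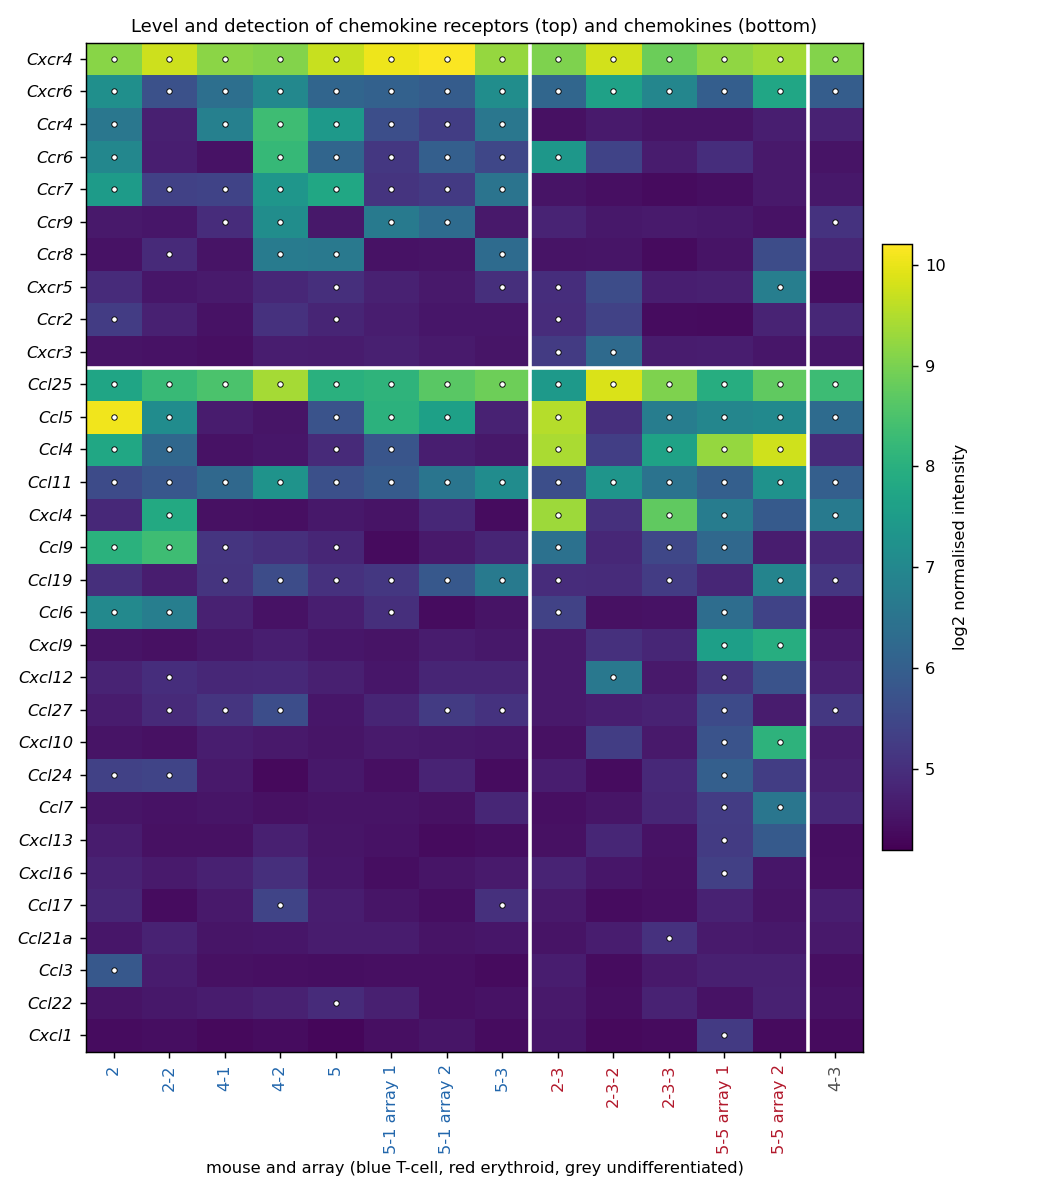
Log2 normalised intensity (colour) of 31 of the 32 member genes detected on at least 1 labelled array, by array, with receptors above the white line and ligands below it, each gene by its probe with the highest mean. Dots mark a detection p under 0.05, and colours may be compared along a row only, since probes differ in response. Ccr4 and Ccr7 are dotted only in T-cell columns, Ccl4 is brightest in erythroid columns, and Cxcl9, Cxcl10 and Ccl7 are dotted only on the 2 arrays of mouse 5-5.

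The first comparison asked how chemokine and receptor transcripts differed between the erythroid and the T-cell leukemias. The T-cell receptors of homing Ccr7 and Ccr4 were lower in the erythroid leukemias, and no member was higher. By limma with Benjamini-Hochberg adjustment over 10474 genes and a threshold of 0.05, 2 of 21 members passed (9.52%), both lower. The background was 1075 of all genes tested (10.3%), with 671 lower (6.41%) and 404 higher (3.86%), so the members' share was near that of all genes. An unadjusted limma p under 0.05 was found for 4 of 21 members (Ccr7, Ccr4, Ccl4 and Cxcl4), beside 2942 of all 10474 genes. With median scaling in place of quantile normalization the split was 386 lower and 43 higher, and no member passed. The median member change was 0.03 on the log2 scale, against -0.03 over all genes. Of the tested receptors, 6 of 10 had a change below 0, and of the tested ligands, 7 of 11 had a change above 0.

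**Figure D3:**
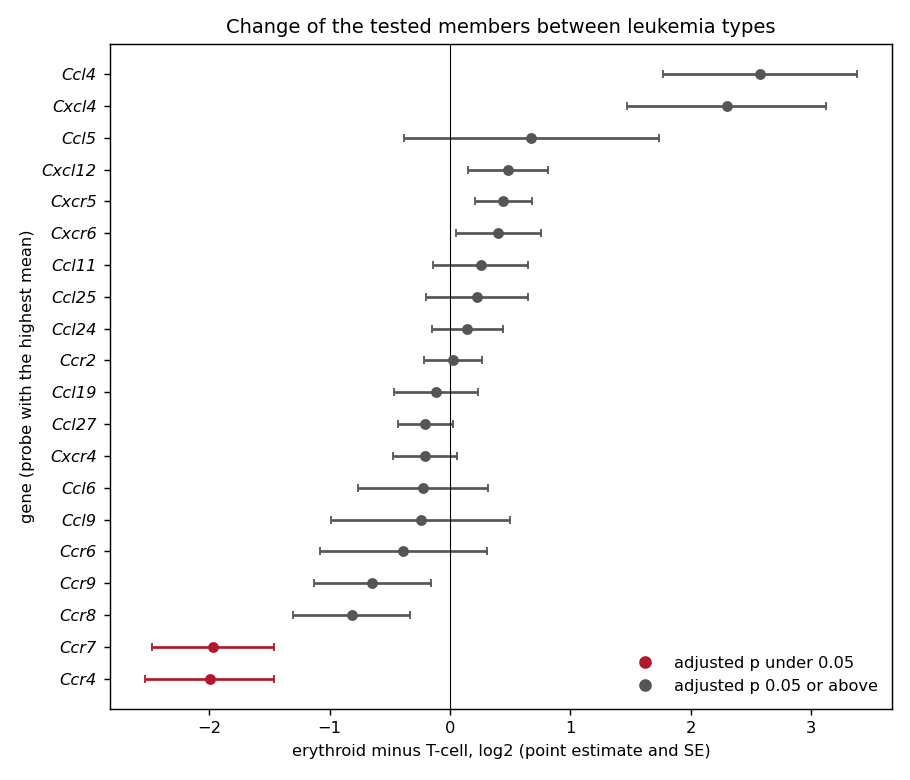
Erythroid minus T-cell change on the log2 scale (horizontal axis, points with standard errors from the limma fit) for 20 of the 21 members tested, ordered by size. Red points passed the threshold: Ccr4 at -2.0 and Ccr7 at -1.97, while Ccl4 at 2.57 and Cxcl4 at 2.30 had larger changes and wider errors.

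Ccr7 guides naive T cells and mature dendritic cells to the T-cell zones of lymph node and spleen. Its log2 level was 7.78 in T-cell mouse 5, 7.48 in mouse 2, 7.35 in mouse 4-2, 6.52 in mouse 5-3, 5.41 in mouse 4-1, 5.37 in mouse 2-2 and 5.16 in mouse 5-1, and it was detected on all 8 T-cell arrays. In the erythroid mice it stood at 4.52 (2-3), 4.52 (5-5), 4.44 (2-3-2) and 4.38 (2-3-3), and in mouse 4-3 at 4.58, detected on none of those arrays. The measured values of the types did not overlap, and the T-cell mice fell into 4 high and 3 low values. Detection on the weak array of mouse 2-3-2 began only at 6.09, above those 3 low values. They cannot be ordered against that mouse. The means were 6.44 ± 1.12 (SD, n = 7) and 4.47 ± 0.07 (SD, n = 4), and the change was -1.97 ± 0.51 (SE, limma adjusted p = 0.0296). Since the probe was not well above background on any erythroid array, the level there is only a bound. Set against the lowest detectable signal of each erythroid array, Ccr7 was at least 2.08-fold higher in the T-cell leukemias.

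Ccr4 marks Th2, regulatory and skin-homing T cells. It reached 8.33 in T-cell mouse 4-2, 7.42 in mouse 5, 6.82 in mouse 4-1, 6.58 in mice 2 and 5-3 and 5.47 in mouse 5-1, with 4.72 and no detection in mouse 2-2. The erythroid mice stood at 4.46 (2-3), 4.62 (5-5), 4.64 (2-3-2) and 4.53 (2-3-3), with no array detected, and mouse 4-3 at 4.78, also not detected. The measured ranges did not overlap, but T-cell mouse 2-2, itself not detected, cannot be ordered against the erythroid mice. Nor can mouse 5-1 (5.47) against mouse 2-3-2, where detection began at 6.09. The means were 6.56 ± 1.19 (SD, n = 7) and 4.56 ± 0.08 (SD, n = 4), with a change of -2.0 ± 0.53 (SE, limma adjusted p = 0.0345) and, by the same bound, at least a 2.26-fold higher level in the T-cell leukemias. Over all genes tested, every erythroid mouse lay below every T-cell mouse for 490 genes (4.68%) and above for 264 (2.52%).

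T-cell markers differed between the types as both receptors did, but did not rank the T-cell mice as they did. The summed linear intensity of the 13 T-cell markers was 2711 to 11505 in the T-cell mice and 637 to 1051 in the erythroid mice, and every marker was detected in both types. T-cell mouse 2-2, where Ccr4 was not detected, had the lowest T-cell sum of its type, 2711, and the highest erythroid marker sum, 16161 against 452 to 12158 in the other T-cell mice. That sum lay within the range of the erythroid mice, 13899 to 26945, and mouse 4-3 stood at 13111. T-cell mouse 5-1, however, had a T-cell sum of 10848, the second highest, with the lowest Ccr7 (5.16) and the second lowest Ccr4 (5.47) of its type. Mouse 4-1, at 5516, had Ccr4 at 6.82. Dendritic cell and MHC class II markers, of which 2 of 10 were lower in the erythroid mice, summed to 3756 to 8862 in the T-cell mice and 3507 to 4520 in the erythroid mice; Zbtb46 and Ciita were detected on no array of either type. The part of these cells in the change of Ccr7 and Ccr4 was not tested. In bulk spleen, fewer cells of a type and less RNA per cell cannot be told apart.

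Both calls were close to the threshold. With T-cell mouse 2, 5, 4-2 or 5-3 or erythroid mouse 5-5, 2-3-2 or 2-3-3 left out, the limma adjusted p of Ccr7 was 0.0528 to 0.0763. With T-cell mouse 2, 5, 4-1 or 5-3 or any erythroid mouse left out, that of Ccr4 was 0.0517 to 0.0825. Without both weak arrays the log2 change was -2.0 for Ccr7 (adjusted p = 0.0617) and -2.05 for Ccr4 (adjusted p = 0.0672). Over all alternatives run, the change lay between -2.19 and -0.81 for Ccr7 and between -2.31 and -0.81 for Ccr4, smallest in both without background correction. On the 3 stronger erythroid arrays, where detection began at 4.86 to 5.02, neither receptor was detected.

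**Figure D4:**
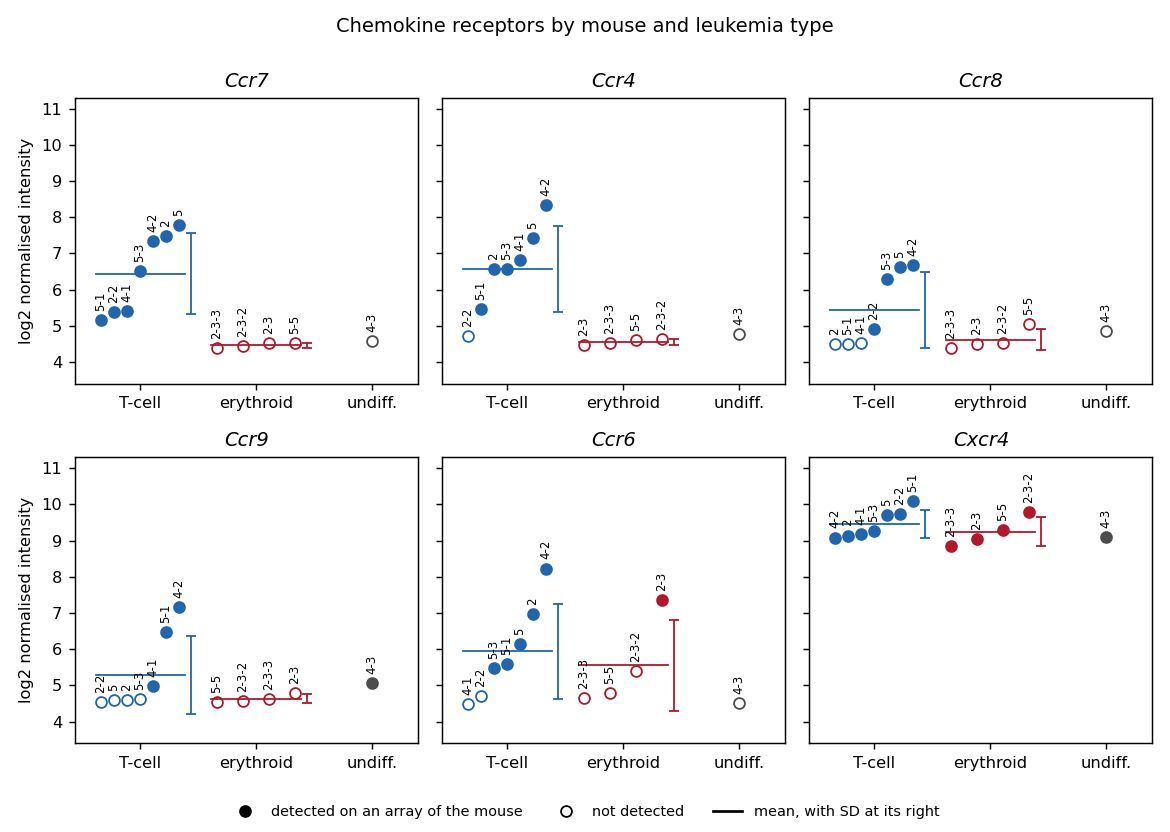
Log2 normalised intensity of 6 chemokine receptors in each mouse by leukemia type; mouse names stand above the points, filled points were detected on an array of that mouse, lines are means and bars at their right are SDs (n = 7 T-cell, n = 4 erythroid, n = 1 undifferentiated). Measured Ccr7 and Ccr4 values do not overlap between T-cell and erythroid mice, but points that are not filled cannot be ordered. Ccr8, Ccr9 and Ccr6 are high in some T-cell mice, and Cxcr4 overlaps throughout.

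The ligands of these receptors were mostly near background. Ccl19, a Ccr7 ligand made by stromal cells of the T-cell zone, was detected on 6 of 8 T-cell and 3 of 5 erythroid arrays and had means of 5.37 ± 0.65 (SD, n = 7) and 5.25 ± 0.44 (SD, n = 4). The highest Ccl19 level was 6.66 in T-cell mouse 5-3, and the types overlapped. Ccl21a, the other stromal Ccr7 ligand, was detected only on the array of erythroid mouse 2-3-3, and Ccl21c on none. Of the Ccr4 ligands, Ccl17 was detected in T-cell mice 4-2 (5.43) and 5-3 (5.03) and Ccl22 in T-cell mouse 5 (4.95), and neither in an erythroid mouse. Those 3 mice were also among the mice with detected Ccr4.

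Ccr8, Ccr9 and Ccr6 were high in some T-cell mice and not detected in others. Ccr8, found on regulatory and Th2 cells, was 6.69 in mouse 4-2, 6.63 in mouse 5, 6.30 in mouse 5-3 and 4.92 in mouse 2-2, and not detected in the other 3 T-cell mice (4.50 to 4.51) or in any erythroid mouse (4.38 to 5.05). The Ccr8 change was -0.82 ± 0.49 (SE, limma adjusted p = 0.290). Its T-cell mean, which includes the 3 mice without detection, lay only 1.04-fold above its bound in the erythroid mice. Its ligand Ccl1 was detected nowhere.

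Ccr9, the receptor of thymocytes and gut-homing T cells, was 7.15 in T-cell mouse 4-2, 6.49 in mouse 5-1 and 4.97 in mouse 4-1. It was not detected in the other 4 T-cell mice (4.55 to 4.62) or in an erythroid mouse (4.54 to 4.80), and stood at 5.07, detected, in mouse 4-3. So high Ccr9 and high Ccr8 met in mouse 4-2 only, while mouse 5-1 had Ccr9 without Ccr8 and mice 5 and 5-3 had Ccr8 without Ccr9. The Ccr9 change was -0.64 ± 0.49 (SE, limma adjusted p = 0.412), and no fold is given because the bound exceeds the T-cell mean. Its ligand Ccl25, known from thymic and intestinal epithelium, was detected on all 14 arrays with T-cell mice at 8.44 ± 0.56 (SD, n = 7), erythroid mice at 8.67 ± 1.03 (SD, n = 4) and mouse 4-3 at 8.32. The highest Ccl25 level, 9.86, was on the weak array of mouse 2-3-2, with a deposited intensity of 406.2 against 628.9 in mouse 2-3-3. A second Ccl25 probe was lower, at 5.43 ± 0.42 (SD, n = 7) and 5.67 ± 0.70 (SD, n = 4), and was detected on 12 of the 14 arrays.

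Ccr6, carried by Th17 cells and B cells, was detected in 5 T-cell mice, at 8.23 (4-2), 6.97 (2), 6.15 (5), 5.60 (5-1) and 5.47 (5-3), and not in mice 4-1 and 2-2. Among erythroid mice only mouse 2-3 showed it, at 7.37, so the types overlapped (change -0.39 ± 0.69 SE, limma adjusted p = 0.748). A second Ccr6 probe stayed between 4.56 and 5.09 and was detected in mice 2 and 2-3 only. B-cell and plasma cell markers summed to 1278 to 4511 in the T-cell mice and 1003 to 2339 in the erythroid mice, where mouse 2-3 had the highest sum. None of the 9 tested B-cell markers passed the test; Jsrp1 and Tnfrsf17 were detected in neither type, and Pax5 and Sdc1 on no erythroid array. The part of these cells in the Ccr6 levels was not tested. Ccl20, the Ccr6 ligand, was detected nowhere.

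Cxcr5, the follicle-homing receptor of B cells, was near background in both types (T-cell 4.82 ± 0.19 SD, n = 7; erythroid 5.26 ± 0.50 SD, n = 4), and its ligand Cxcl13 was detected on only the first array of mouse 5-5. The Cxcr5 change was 0.44 ± 0.24 (SE, limma adjusted p = 0.242). Cxcr3, the receptor for Cxcl9 and Cxcl10 on activated T cells, did not reach the filter and was detected only in erythroid mice 2-3 (5.25) and 2-3-2 (6.27). The deposited Cxcr3 intensities of these mice were 156.6 and 120.7. The latter, from a weak array, lay below the 130.4 of the first array of mouse 5-1, where Cxcr3 was not detected.

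The receptors present everywhere did not separate the types. Cxcr4 ran from 9.08 to 10.10 in the T-cell mice and was 9.04 (2-3), 9.29 (5-5), 9.79 (2-3-2) and 8.86 (2-3-3) in the erythroid mice and 9.10 in mouse 4-3. The means of 9.45 ± 0.39 (SD, n = 7) and 9.24 ± 0.40 (SD, n = 4) lay within one spread of each other, with a change of -0.21 ± 0.26 (SE, limma adjusted p = 0.637). Its ligand Cxcl12 was near background except in erythroid mouse 2-3-2 (6.60, detected), where it lay above all other mice after normalization. That array was weak. Its deposited Cxcl12 intensity, 124.3, lay below those of several other mice, such as 2-2 (141.1) and 2 (133.6). Cxcl12 was also detected in T-cell mouse 2-2 (4.98) and on the first array of mouse 5-5. The other 4 Cxcl12 probes did not show the high level of mouse 2-3-2, with 4.34 to 4.84 and no detection there. Of these, 3 were detected in T-cell mouse 5-3, and 1 of the 3 also on both arrays of erythroid mouse 5-5, where it was highest (5.78). Cxcr6, found on activated T and NKT cells, had T-cell levels of 6.51 ± 0.60 (SD, n = 7), erythroid levels of 6.91 ± 0.59 (SD, n = 4) and 5.98 in mouse 4-3 (limma adjusted p = 0.482 between the types). Its highest levels were on the weak arrays, 7.63 in mouse 2-3-2 and 7.75 on the second array of mouse 5-5 (first array 6.00). The deposited Cxcr6 intensities there were 146.7 and 127.2, against 140.0 to 260.8 on the other labelled arrays. Cxcl16, the Cxcr6 ligand, was detected only on the first array of mouse 5-5.

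Ccl4, an inflammatory ligand from activated macrophages and cytotoxic lymphocytes, showed the largest change of a tested member without passing the test. Its log2 level was 9.43 in erythroid mouse 2-3, 9.51 in mouse 5-5, 7.65 in mouse 2-3-3 and 5.31, not detected, in mouse 2-3-2. In the T-cell mice it was 7.78 in mouse 2, 6.20 in mouse 2-2, 5.24 in mouse 5-1 and 4.92 in mouse 5, and not detected in mice 4-1, 4-2 and 5-3 (4.50 to 4.58). A second Ccl4 probe was detected only in T-cell mouse 2-2 (5.07). The types overlapped through T-cell mouse 2 and erythroid mouse 2-3-2, the latter on a weak array. The means were 5.40 ± 1.21 (SD, n = 7) and 7.97 ± 1.97 (SD, n = 4), and the change was 2.57 ± 0.80 (SE, limma adjusted p = 0.0588). Without T-cell mouse 2 the change was 2.97 (adjusted p = 0.0376), without erythroid mouse 2-3-2 it was 3.46 (adjusted p = 0.0215) and without both weak arrays it was 3.38 (adjusted p = 0.0216). Each of these settings leaves out a mouse of the overlap. Over all alternatives run, Ccl4 passed in 8 of 31, with changes of 1.41 to 3.50 (limma adjusted p 0.0203 to 0.249).

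Ccl5, a ligand made by T and NK cells, varied as widely within each type. It was 10.06 in T-cell mouse 2, 7.83 in mouse 5-1, 7.11 in mouse 2-2 and 5.75 in mouse 5, and not detected in the other 3 T-cell mice (4.54 to 4.78). In the erythroid mice it was 9.53 (2-3), 6.99 (5-5), 6.73 (2-3-3) and 5.00 (2-3-2, not detected), and 6.30 in mouse 4-3. The groups overlapped almost wholly (change 0.67 ± 1.06 SE, limma adjusted p = 0.711). NK and cytotoxic cell markers summed to 3008 to 5672 in the T-cell mice and 3034 to 5000 in the erythroid mice. Of the 6 tested, 1 was lower in the erythroid mice and 5 did not pass. Ncr1, Gzmb and Tbx21 were detected in neither type, and Eomes on no erythroid array. The part of NK and cytotoxic cells in Ccl4 and Ccl5 was not tested. Ccl3 was detected only in T-cell mouse 2 (5.84), the mouse with the highest Ccl5. On the chromosome, Ccl5, Ccl9, Ccl6, Ccl3 and Ccl4 are neighbouring genes.

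Cxcl4 is platelet factor 4, stored in platelet granules and made by megakaryocytes. Its level was 9.31 in erythroid mouse 2-3, 8.74 in mouse 2-3-3, 6.32 in mouse 5-5 and 5.02, not detected, in mouse 2-3-2. Among T-cell mice only mouse 2-2 showed it, at 7.85, the other 6 standing at 4.40 to 4.89, and mouse 4-3 had 6.66. The change between types was 2.30 ± 0.83 (SE, limma adjusted p = 0.0927), with overlap through mice 2-2 and 2-3-2. Without T-cell mouse 2-2 it was 2.77 (adjusted p = 0.0207), without mouse 2-3-2 it was 3.07 (adjusted p = 0.0440) and without both weak arrays it was 3.21 (adjusted p = 0.0328). Each of these settings leaves out a mouse of the overlap, and they are the only 3 of 30 alternatives in which Cxcl4 passed. Over all 30, the change was 1.16 to 3.21 (limma adjusted p 0.0207 to 0.348). Of 10 megakaryocyte and platelet markers, Cxcl4 included, 2 were higher in the erythroid mice: Itga2b, the platelet integrin subunit (2.05 ± 0.53 SE, adjusted p = 0.0296), and F2rl2, a thrombin receptor (1.56 ± 0.39 SE, adjusted p = 0.0281). Without Cxcl4, the list summed to 656 to 1509 in T-cell mice and 1219 to 2646 in erythroid mice, and Vwf and Treml1 were detected on no T-cell array. The part of platelets and megakaryocytes in the Cxcl4 levels was not tested.

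**Figure D5:**
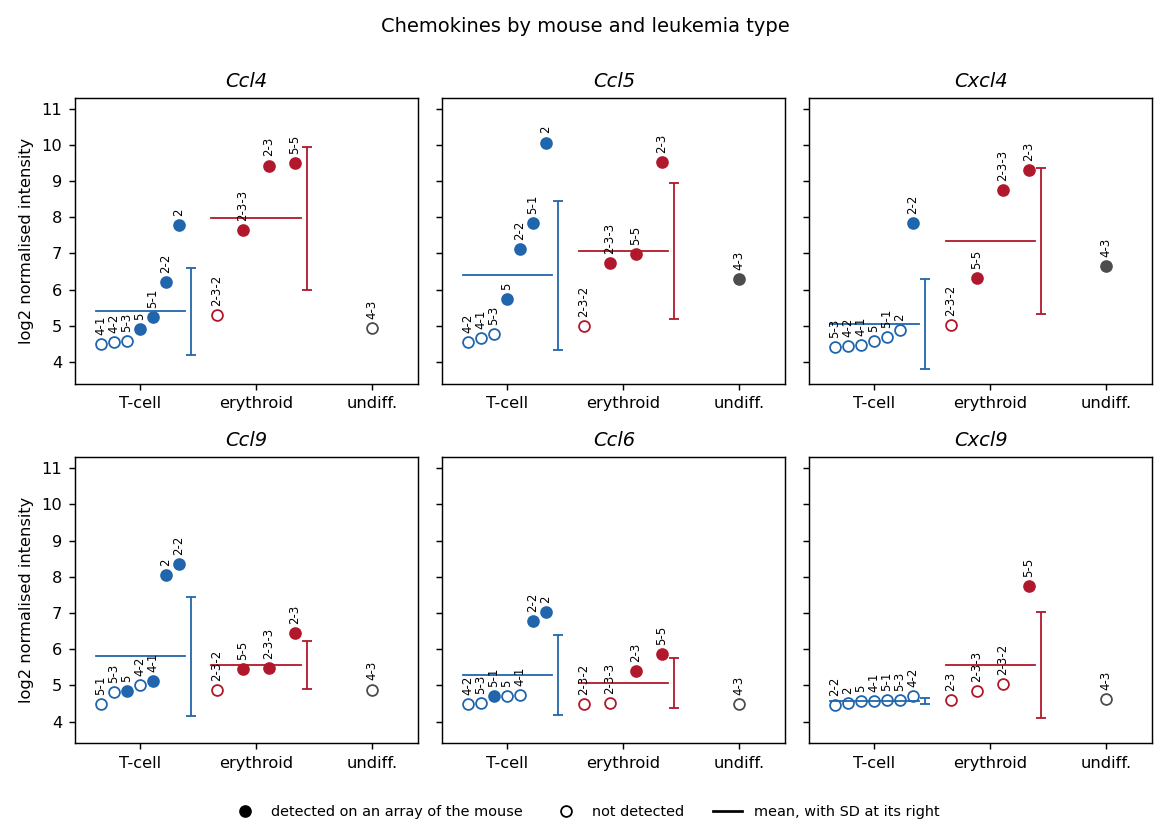
Log2 normalised intensity of 6 chemokines in each mouse by leukemia type, drawn as in the plot of receptors (filled points detected, lines means, bars SDs, n = 7, n = 4 and n = 1). Ccl4 and Cxcl4 are high in 3 of 4 erythroid mice, Ccl9 and Ccl6 in T-cell mice 2 and 2-2, and Cxcl9 in mouse 5-5 alone.

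Ccl9 and Ccl6, rodent ligands of Ccr1 made by myeloid cells, were named after their values were seen. Their genes are adjacent, and the 300 bases around the start of each (RefSeq, GRCm38.p6, minus strand, from 250 before to 50 after) are shown because the pair was high in the same T-cell mice: chr11:83578587-83578886 for Ccl9 and chr11:83593038-83593337 for Ccl6. Capitals mark matches, on either strand, to TATAAA, to TGANTCA (AP-1) or to GGGNNNTTCC (kappa B), and GAAANNGAAA (interferon response) and TTCNNNGAA (gamma-activated site) were searched as well.
Ccl9: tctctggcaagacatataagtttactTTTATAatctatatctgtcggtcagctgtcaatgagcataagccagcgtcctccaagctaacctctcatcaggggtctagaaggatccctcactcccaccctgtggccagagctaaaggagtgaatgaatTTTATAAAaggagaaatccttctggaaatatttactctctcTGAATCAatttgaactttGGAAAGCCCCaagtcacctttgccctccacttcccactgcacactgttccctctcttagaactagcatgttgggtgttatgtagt
Ccl6: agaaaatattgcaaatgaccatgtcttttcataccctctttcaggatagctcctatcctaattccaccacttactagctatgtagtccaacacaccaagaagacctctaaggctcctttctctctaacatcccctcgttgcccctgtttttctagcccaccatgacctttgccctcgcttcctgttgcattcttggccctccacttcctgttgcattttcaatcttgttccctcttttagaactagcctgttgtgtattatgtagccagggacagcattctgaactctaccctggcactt
The Ccl9 window held 3 TATAAA matches, a pair of them overlapping, a match to the AP-1 letters and 1 kappa B match. None of the 5 motifs was in the Ccl6 window. Of 32851 RefSeq promoters of the same length, 13.6% held TATAAA, 7.81% TGANTCA, 5.56% GGGNNNTTCC, 3.44% GAAANNGAAA and 8.30% TTCNNNGAA. RefSeq promoters were found for 38 of the 53 genes.

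Ccl9 was 8.34 in T-cell mouse 2-2 and 8.04 in mouse 2, against 4.49 to 5.13 in the other T-cell mice, and Ccl6 was 6.77 and 7.02 in the same mice, against 4.50 to 4.75. The erythroid mice lay below both, with Ccl9 at 6.44 (2-3), 5.48 (2-3-3), 5.46 (5-5) and 4.86 (2-3-2) and Ccl6 at 5.39 (2-3), 5.87 (5-5), 4.50 (2-3-3) and 4.47 (2-3-2). Both mice share the leading number 2 of their titles, whose meaning the labels do not give. Across the leading numbers 2, 4 and 5, the T-cell leukemias differed in 1 of 10474 genes (0.00955%) and in no member (limma moderated F, Ccl9 adjusted p = 0.0850, Ccl6 adjusted p = 0.226). Ccl9 passed without both weak arrays (adjusted p = 0.0350), without erythroid mouse 2-3 (adjusted p = 0.0344) or without mouse 2-3-2 (adjusted p = 0.0350), which enter only the shared spread. The pair was named for this pattern, so its p-values are no independent test of it.

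The difference of the erythroid minus T-cell change between numbers 5 and 2 was also fitted, with mouse 5-5 as the only erythroid mouse of number 5. No gene passed in limma (0%), and 624 genes had an unadjusted p under 0.05, 4 of them members. Macrophage markers summed to 7088 and 4987 in mice 2-2 and 2 and to 1963 to 2761 in the other T-cell mice, and neutrophil markers to 12783 and 4068 against 417 to 1000. In the erythroid mice the macrophage sum was 1648 to 8202 and the neutrophil sum 452 to 7521. None of 16 macrophage and 12 neutrophil markers passed between the types. The macrophage markers Cd14, C1qa and Cd5l were detected on no T-cell array, and Msr1 on no array of either type. The part of these cells in Ccl6 and Ccl9 was not tested.

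Cxcl9 and Cxcl10, the interferon-induced ligands of Cxcr3, and Ccl7, a monocyte attractant that binds Ccr2, were detected in mouse 5-5 and in no other labelled mouse. Cxcl10 and Ccl7 were named after their values were seen. Both Cxcr3 ligands lie on chromosome 5, and their start regions (RefSeq, GRCm38.p6, minus strand, 250 bases before to 50 after) are shown because they were high in the same mouse: chr5:92328030-92328329 for Cxcl9 and chr5:92348840-92349139 for Cxcl10. Capitals mark the same motifs and, in Cxcl10, a match to GAAANNGAAA.
Cxcl9: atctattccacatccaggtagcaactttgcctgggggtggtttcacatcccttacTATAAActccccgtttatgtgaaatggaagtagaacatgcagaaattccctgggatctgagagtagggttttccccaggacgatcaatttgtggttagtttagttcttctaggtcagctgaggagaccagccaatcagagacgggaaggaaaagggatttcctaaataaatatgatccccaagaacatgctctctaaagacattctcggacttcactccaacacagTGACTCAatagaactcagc
Cxcl10: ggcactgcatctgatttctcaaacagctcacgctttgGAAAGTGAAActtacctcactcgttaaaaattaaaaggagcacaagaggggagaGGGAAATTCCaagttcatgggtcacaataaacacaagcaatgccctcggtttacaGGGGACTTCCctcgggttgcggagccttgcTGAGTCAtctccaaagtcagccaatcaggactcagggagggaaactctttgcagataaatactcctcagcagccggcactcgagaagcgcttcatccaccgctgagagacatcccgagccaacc
The Cxcl10 window held 1 interferon response match starting 213 bases before the gene start, kappa B matches at 159 and 104 bases before it and 1 AP-1 match. That of Cxcl9 held 1 TATAAA match and 1 AP-1 match, and neither window held TTCNNNGAA.

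On the first and second array of mouse 5-5, the log2 level was 7.58 and 7.93 for Cxcl9, 5.74 and 8.07 for Cxcl10 and 5.28 and 6.56 for Ccl7. The deposited intensities of Cxcl9 there were 279.5 ± 7.7 and 131.9 ± 2.7 (bead standard error), against 104.4 to 126.5 on the other labelled arrays, so the second array stood only slightly above them before normalization. Those of Cxcl10 were 138.4 and 136.7, against 101.8 to 126.2 elsewhere. Those of Ccl7 were 126.5 and 109.4, against 97.7 to 126.9 elsewhere, so before normalization Ccl7 did not stand above the other arrays. All other mice lay at 4.47 to 5.03 for Cxcl9, and no other array detected it. Cxcl10 reached 5.29 in mouse 2-3-2 without detection, on a weak array. None of these genes reached the filter of 3 arrays. The lowest detectable signal in the other 3 erythroid mice, where none of the 3 ligands was detected, had a mean of 5.32. Against it, the mean of both arrays of mouse 5-5 was 5.39-fold higher for Cxcl9, 3.00-fold for Cxcl10 and 1.51-fold for Ccl7. These folds are no minimum, since they rest in part on the weak second array. On the first array Cxcl9 (7.58) lay above 5.32, Cxcl10 (5.74) little above it and Ccl7 (5.28) below it. These are values of 1 mouse, and the genes were chosen for being high in it, so no p is given. A limma fit of mouse 5-5 against those 3 mice called 9 of 10474 genes (0.0859%) and no member, and without the filter 91 of 18115 genes (0.502%).

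Interferon-induced genes were also highest in mouse 5-5, where the 11 tested summed to 9730. They summed to 1986 to 4028 in the other erythroid mice, 1055 to 3449 in the T-cell mice and 970 in mouse 4-3. The next highest sums, in erythroid mouse 2-3 (4028) and T-cell mouse 2-2 (3449), came with Cxcl9 at 4.60 and 4.47, not detected. Of the interferon-induced genes, Ifit1 alone was higher in the erythroid leukemias (2.62 ± 0.50 SE, limma adjusted p = 0.00953). Oas1a was detected on no T-cell array and Mx1 on no erythroid array. The 14 inflammatory cytokine and NF-kB target genes summed to 2122 in mouse 5-5, 881 to 1387 in the other erythroid mice and 752 to 1678 in the T-cell mice. In this list Tnfaip2, a TNF-induced gene, was higher in the erythroid leukemias (2.02 ± 0.53 SE, limma adjusted p = 0.0307) and Il4, the Th2 cytokine, was lower (-2.25 ± 0.65 SE, limma adjusted p = 0.0456). Il4 was detected on no erythroid array, and its T-cell level was at least 2.68-fold above the lowest detectable signal there. Mouse 5-5 also had the highest macrophage sum, 8202. The part of macrophages, interferon signalling and array quality in the 3 ligands was not tested.

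The eotaxin Ccl11, an attractant of eosinophils, was detected on all 14 arrays at 6.27 ± 0.68 (SD, n = 7) and 6.53 ± 0.70 (SD, n = 4), with 6.01 in mouse 4-3, and the types overlapped. Its highest level, 7.34, was on the weak array of mouse 2-3-2, where the deposited intensity was 138.1, against 117.0 to 191.7 on the other labelled arrays. Ccl27, a ligand of Ccr10, was detected on 5 T-cell arrays, 1 erythroid array and the undifferentiated array, at 5.00 ± 0.35 (SD, n = 7), 4.80 ± 0.21 (SD, n = 4) and 5.17. Ccl24, named after its values were seen, was detected in T-cell mice 2 (5.35) and 2-2 (5.42), the mice with high Ccl6 and Ccl9, and in mouse 5-5 (5.65). The monocyte receptor Ccr2 was near background, at 4.80 ± 0.28 (SD, n = 7) and 4.83 ± 0.44 (SD, n = 4). None of these 4 genes passed the test between the types (limma adjusted p 0.589 to 0.954).

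Mouse 4-3, with undifferentiated leukemia, was set against each type. No member passed in either contrast, beside 2 genes (0.0191%) against the T-cell and 1 gene (0.00955%) against the erythroid leukemias in limma, and no member had an unadjusted p under 0.05, beside 754 and 489 genes. Its detected genes included the receptors Cxcr4, Cxcr6 and Ccr9 and the ligands Ccl11, Ccl19, Ccl25, Ccl27, Ccl5 and Cxcl4. Ccr9 was otherwise detected only in 3 T-cell mice, and Cxcl4 in T-cell mouse 2-2 and 3 erythroid mice. Ccr7, Ccr4 and Ccl4 were not detected in it. With 1 mouse, its spread was assumed to be that of the other groups.

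Genes that carry chemokine signals onward were lower in the erythroid leukemias where they passed the test, but most did not pass. Over all genes tested, 671 of 10474 (6.41%) were lower and 404 (3.86%) higher. Of 25 tested genes of chemokine receptor signalling, 16 did not pass, none rose and 9 fell in the erythroid leukemias. Their median change was -0.80, against -0.03 over all genes. Those that fell included Coro1a, a regulator of actin in T cells (-2.88 ± 0.43 SE), and the GTPase Rac2 (-2.35 ± 0.38 SE). Rassf5, which couples Rap1 to integrins (-2.40 ± 0.43 SE), and its partner kinase Stk4 (-1.55 ± 0.30 SE) fell as well. Of 13 desensitisation genes, 3 fell, namely Rgs10 (-1.70 ± 0.33 SE) and Rgs14 (-1.10 ± 0.31 SE), which speed the shut-off of G proteins, and Arrb2, the arrestin that uncouples receptors (-1.25 ± 0.32 SE). Rgs14 was detected on no erythroid array, and against the lowest detectable signal there it was at least 1.2-fold higher in the T-cell leukemias. Of 9 other attractant and egress receptors, S1pr2 (-2.20 ± 0.45 SE) and Gpr183 (-2.92 ± 0.80 SE), a receptor for oxysterols that positions lymphocytes, fell. Among 8 relatives of the family under other symbols, Cmtm6 (-1.33 ± 0.32 SE) and Cmtm7 (-1.17 ± 0.29 SE) fell, and Ackr2 and Cxcr1 were detected in neither type.

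Adhesion molecules of homing went both ways, and 7 of the 12 tested did not pass. Beside them, 6.41% of all genes were lower and 3.86% higher. Of 12 tested, Cd44, the hyaluronan receptor, rose by 2.08 ± 0.42 (SE) and P-selectin (Selp) by 1.2 ± 0.23 (SE), while Selplg (-1.96 ± 0.41 SE), Itgb2 (-1.72 ± 0.45 SE) and Icam2 (-0.98 ± 0.25 SE) fell. The limma adjusted p of the adhesion, signalling, desensitisation, egress receptor and family genes named here lay between 0.00311 and 0.0416. The part of the T-cell content given above in their changes was not tested.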

How the data were processed

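Per the labels' protocols, spleen cells were stored as pellets, and RNA was isolated on RNeasy columns, amplified by a small-input NuGEN kit and biotin-labelled. The authors deposited for each probe and array a mean bead intensity with its bead standard error and bead number, and a detection p-value, all not normalized; scanner software was not given in the sources used here. They also deposited log2 processed values, made with limma and R 3.0.2 per the submitters' processing notes, which served as an alternative (correlation of 0.99998 or above with the values below).

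Here the intensities were normalised by limma 3.58.1 (R 4.3.3, function neqc; background from the detection p-values, offset 16, quantile over 15 arrays, log2). Probes were kept if detected (detection p below 0.05) on 3 or more of 14 labelled arrays, arrays of 1 mouse averaged, and the probe with the highest mean was taken per gene. lmFit and eBayes were run on 12 mice with leukemia type as the only term, and again with 1 mean per type and leading number; P-values were two-sided and Benjamini-Hochberg adjusted over 10474 genes. The procedure was tested on simulated data. "At least" folds use, per array, the higher of the lowest detected level and the probe's own. Their number of mice limits the precision; bead standard errors were about 3% to 4% of the intensity.

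The members, lists and naming rule were chosen with earlier results of these data known. Named were members past the threshold, the 5 largest changes in each direction, the 5 highest means per type, members at least 1 (log2) above all other mice in a mouse, their receptors or ligands, and up to 4 genes per list. The symbols Cxcl4, Ccl27 and Cxcr7 are Pf4, Ccl27a and Ackr3 in RefSeq (GRCm38.p6). Deviations from the type mean correlated at -0.79 to 0.38 (median -0.03) in 17 pairs of mice of the same leading number. In 38 pairs of different numbers they correlated at -0.61 to 0.40 (median -0.09). Subtracting the type mean lowers the correlation of mice of 1 type, so these values cannot tell whether mice of a number are related. The main fits did not pair mice by number. Alternatives covered scaling, background, filter, probe choice, repeat arrays, weak arrays, blocks and each mouse left out. The counts cover all 53 genes, but 1 gene is not reported here by name, nor drawn.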

Additional observations from a re-analysis of the deposited data

Results flagged for a closer look

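Single mice stood apart from their type in 4 of 66 groups of mice examined, by a gap test that flags about 1 group in 20 by chance. Ccl3 was 5.84 in T-cell mouse 2, with the others at 4.38 to 4.67. Cxcl4 was 7.85 in T-cell mouse 2-2, with the others at 4.40 to 4.89. Cxcl9 was 7.75 in erythroid mouse 5-5, with the others at 4.60 to 5.03. Ccl7 was 4.84 in T-cell mouse 5-3, with the others at 4.47 to 4.53, and it was not detected in any T-cell mouse. The array without a type label, which entered no comparison, detected 11 of the 67 member probes.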

How the results depend on the processing

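The number of members called between the erythroid and T-cell leukemias changed with the settings. Members lower numbered 0 under median scaling, cyclic loess, no background correction, an offset of 50, no filter, without the 2 weakest arrays, with the leading number as a replicate block, and within array label numbers 1 to 8 or 9 to 16. Members higher numbered 1 (Ccl4) under cyclic loess, a strict filter of 7 arrays, a detection p under 0.01, arrays with mouse as a random block and label number range as a block, and 2 (Ccl4 and Cxcl4) without the 2 weakest arrays. With a mouse left out, both counts ran from 0 to 2. Over all genes the count fell to 429 under median scaling, 577 with no filter, 591 without the weak arrays, 109 with the block, 0 within label numbers 1 to 8 and 179 within 9 to 16, and ran from 460 to 1474 with a mouse left out.

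Ccr7 and Ccr4 kept their direction in all 31 alternatives run and passed in 15 (adjusted p 0.0136 to 0.296) and 14 (0.00639 to 0.240). With the leading number as a replicate block the changes were -1.97 (adjusted p = 0.131) and -1.40 (adjusted p = 0.183); without background correction both were -0.81. Ccl4 passed in 8 of 31 and Cxcl4 in 3 of 30. Median scaling moved the median of all genes to -0.22. Signs turned for Ccl5 (-0.59 with the block, -0.15 to 1.36 with a mouse left out), Cxcl12 (-0.057) and Cxcr5 (-0.013) without the weak arrays, and Ccr6 (0.68 within label numbers 1 to 8), none of them called. By leading number, 1 T-cell member passed without the weak arrays (0 to 1 with a mouse left out), 3 erythroid members without the filter, and in the difference of changes 1 without the filter (Cxcl9) and 1 with mouse as a random block (Ccl6). The causes were not tested.

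Repeat arrays differed by a median of 0.36 (log2) over the members in mouse 5-1 and 0.80 in mouse 5-5, where Ccl19 differed by 2.07. Levels near background cannot be ordered at this precision.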

Other observations

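The array without a mouse or type label detected Cxcr4 at a log2 level of 9.99, Ccl25 at 9.30, Cxcr6 at 7.30, Ccr6 at 6.48, Ccl11 at 6.19, Ccl19 at 5.98, Ccl27 at 5.97, Ccr9 at 5.63 and Ccr4 at 5.41. Ccr7 stood at 4.82 there, and Ccl4, Cxcl4 and Cxcl9 were not detected.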
